A study of Mus musculus with 8 samples.

Results

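The proteins of the MYC network are basic helix-loop-helix leucine zipper transcription factors, and 8 genes of this network were followed through the data. They are Myc and Mycn, which encode activating factors, Max, whose product is their shared dimerization partner, and Mxd1, Mxd3, Mxd4, Mnt and Mxi1, whose products bind MAX in place of MYC. The 8 genes were taken by their symbols, as members of the network, out of 26160 genes with summed transcript levels. All 8 were measured in pre-B cells, where they passed the filter on low values together with 11871 genes in all, and all 8 had at least 1 accessible region in LSK cells.

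MYC and MAX bind the E-box CACGTG as a dimer and recruit coactivators to genes of growth, ribosome production and the cell cycle. MXD proteins, MXI1 and MNT compete for MAX and bring the SIN3 and histone deacetylase corepressor to the same sites. In B-cell precursors, MYC is known for driving the proliferation of large pre-B cells in response to interleukin 7 and the pre-BCR, and its level falls as they become small resting pre-B cells. In hematopoietic stem cells, MYC and MYCN have overlapping roles in self-renewal, survival and the exit towards differentiation.

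The study asked how loss of Dido3, the largest product of Dido1, affects blood cell precursors. Dido1∆E16 mice carried a floxed and a deleted allele (Dido1 flE16/∆E16) and the WT controls a floxed and an intact allele (Dido1 flE16/+), so that WT cells could lose exon 16 of 1 allele. Mice of both groups also carried the iCreVav1 transgene, which expresses Cre from the Vav1 promoter throughout blood cells, and the R26R-EYFP reporter. They were C57BL/6 mice of 6 to 10 weeks, sex- and age-matched. LSK cells (lineage-negative, Sca-1+, c-Kit+ progenitors) gave 2 WT and 2 Dido1∆E16 Omni-ATAC-seq libraries, in which the Tn5 transposase cuts open chromatin. Pre-B cells (sorted by surface markers, among them B220+ and IgM-) gave 2 WT and 2 Dido1∆E16 RNA-seq libraries, each from a pool of 2 to 3 mice. No treatment or time course was applied. For 2 libraries against 2 the smallest p of an exact permutation test (two-sided) is 0.33.

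The labels were checked on the deleted exon. The last exon of the long Dido1 transcript (chr2:180657963-180662583, GRCm38) had a coverage, scaled to TPM, of 24.6 and 21.8 in WT replicates 1 and 2. In Dido1∆E16 replicates 1 and 2 it was 0.295 and 0.0843, so the exon was nearly without reads where the labels have it deleted. The pre-B libraries held 1581, 1121, 1635 and 1173 Mb of aligned bases, in the order WT 1, WT 2, Dido1∆E16 1 and Dido1∆E16 2. Cd79a, a component of the B-cell receptor, stood at 3648, 4476, 3685 and 4070 TPM in this order, and Cd3e, Cd4 and Cd8a of T cells were listed at 0 in all 4. The LSK libraries held 10249256, 52050898, 22533077 and 44633938 tags, also in this order. Kit had 4 and 11 MACS2 peaks in WT and 4 and 4 in Dido1∆E16 LSK cells, whereas Ly6a, which encodes Sca-1, had 1 peak in WT replicate 2 and none called in the other libraries.

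The sequences shown first are the promoter windows of these genes that held either of the motifs described here. A promoter window runs from 250 bases before to 50 bases after the start site, in the direction of the gene, taken from RefSeq on GRCm38.p6. Such windows were found for 7 of the 8 genes (9 windows), and Myc was not among them. Capitals mark the E-box CACGTG, which reads the same on both strands, and the E2F-type motif TTTNGCGC on either strand, whose matches may overlap each other. Max, Mnt and Mxd4 each held 1 E-box, beside 7.15% of all 32851 promoter windows, and their windows lay under peaks in all 4 LSK libraries. Mycn held 3 close E2F-type matches, of which the first pair overlaps, and no E-box, and 1.38% of all windows held the E2F-type motif. Neither motif occurred in the windows of Mxd1, Mxd3 and Mxi1. Of these, the Mxd1 window and the Mxi1 windows inside the gene also lay under peaks in all 4 LSK libraries. A match describes the letters and does not show that a factor binds there.

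Max promoter (chr12:76962199-76962498, minus strand): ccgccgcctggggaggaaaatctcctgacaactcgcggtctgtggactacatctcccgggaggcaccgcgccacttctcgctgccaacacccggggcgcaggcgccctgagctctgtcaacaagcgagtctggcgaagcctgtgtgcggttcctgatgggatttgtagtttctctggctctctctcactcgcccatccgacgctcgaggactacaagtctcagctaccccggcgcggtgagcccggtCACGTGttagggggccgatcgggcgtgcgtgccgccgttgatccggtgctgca

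Mnt promoter (chr11:74830674-74830973, plus strand): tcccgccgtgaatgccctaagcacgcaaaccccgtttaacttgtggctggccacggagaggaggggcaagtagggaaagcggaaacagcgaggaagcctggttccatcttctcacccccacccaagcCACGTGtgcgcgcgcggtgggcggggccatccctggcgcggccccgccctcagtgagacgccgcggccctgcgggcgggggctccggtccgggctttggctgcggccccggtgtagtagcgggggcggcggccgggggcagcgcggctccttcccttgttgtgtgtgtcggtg

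Mxd4 promoter (chr5:34187661-34187960, minus strand): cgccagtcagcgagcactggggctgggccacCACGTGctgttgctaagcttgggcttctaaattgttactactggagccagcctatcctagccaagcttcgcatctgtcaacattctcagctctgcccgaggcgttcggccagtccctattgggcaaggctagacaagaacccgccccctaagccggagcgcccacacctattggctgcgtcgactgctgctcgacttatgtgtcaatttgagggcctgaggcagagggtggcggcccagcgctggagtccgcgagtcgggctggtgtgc

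Mycn promoter (chr12:12941787-12942086, minus strand): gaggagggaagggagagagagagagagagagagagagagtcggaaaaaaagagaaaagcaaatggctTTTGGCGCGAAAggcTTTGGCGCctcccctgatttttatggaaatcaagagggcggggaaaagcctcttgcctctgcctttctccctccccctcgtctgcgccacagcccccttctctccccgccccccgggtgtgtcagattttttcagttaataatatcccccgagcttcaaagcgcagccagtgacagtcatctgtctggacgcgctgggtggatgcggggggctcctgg

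The last sequence is the middle of the WT replicate 1 peak in the region upstream of Mycn that both WT LSK libraries shared and that MACS2 did not call in Dido1∆E16 cells. It held neither motif. Of the 300-base windows at the 27352 MACS2 peaks of WT replicate 1, 7.3% held the E-box and 1.41% the E2F-type motif.

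Mycn upstream region (chr12:12942394-12942693, minus strand): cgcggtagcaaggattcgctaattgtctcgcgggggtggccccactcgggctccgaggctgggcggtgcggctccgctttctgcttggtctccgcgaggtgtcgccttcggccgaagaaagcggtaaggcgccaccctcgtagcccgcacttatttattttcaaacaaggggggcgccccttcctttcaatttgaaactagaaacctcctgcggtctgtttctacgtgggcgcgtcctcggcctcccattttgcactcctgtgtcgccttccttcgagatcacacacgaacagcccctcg

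Mycn was the gene of the 8 whose regions shared by the WT libraries were all without a MACS2 peak in Dido1∆E16 LSK cells. MACS2 called 5 peaks of Mycn in WT 1 and 10 in WT 2, against 0 in Dido1∆E16 1 and 1 in Dido1∆E16 2. When each library contributed only its 13208 best-scoring peaks (equal numbers of peaks), Mycn had 1 and 1 in WT and 0 and 1 in Dido1∆E16 cells, and the genotypes overlapped. The regions shared by the WT libraries, over all peaks, numbered 4. With HOMER peaks, 1 of 3 shared Mycn regions and 3 of 5 of Max had no Dido1∆E16 peak, and the Mycn peak counts of 3 and 6 in WT and 0 and 3 in Dido1∆E16 cells overlapped. Over all genes, 43.6% of 26295 shared WT regions had no Dido1∆E16 peak. All MACS2 peaks numbered 27352 and 57739 in WT and 13208 and 16329 in Dido1∆E16 cells, and the part of these totals in the counts of single genes was not tested. The share without a Dido1∆E16 peak was 14.8% among the shared regions at promoters and 60.6% among the others.

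**Figure D1:**
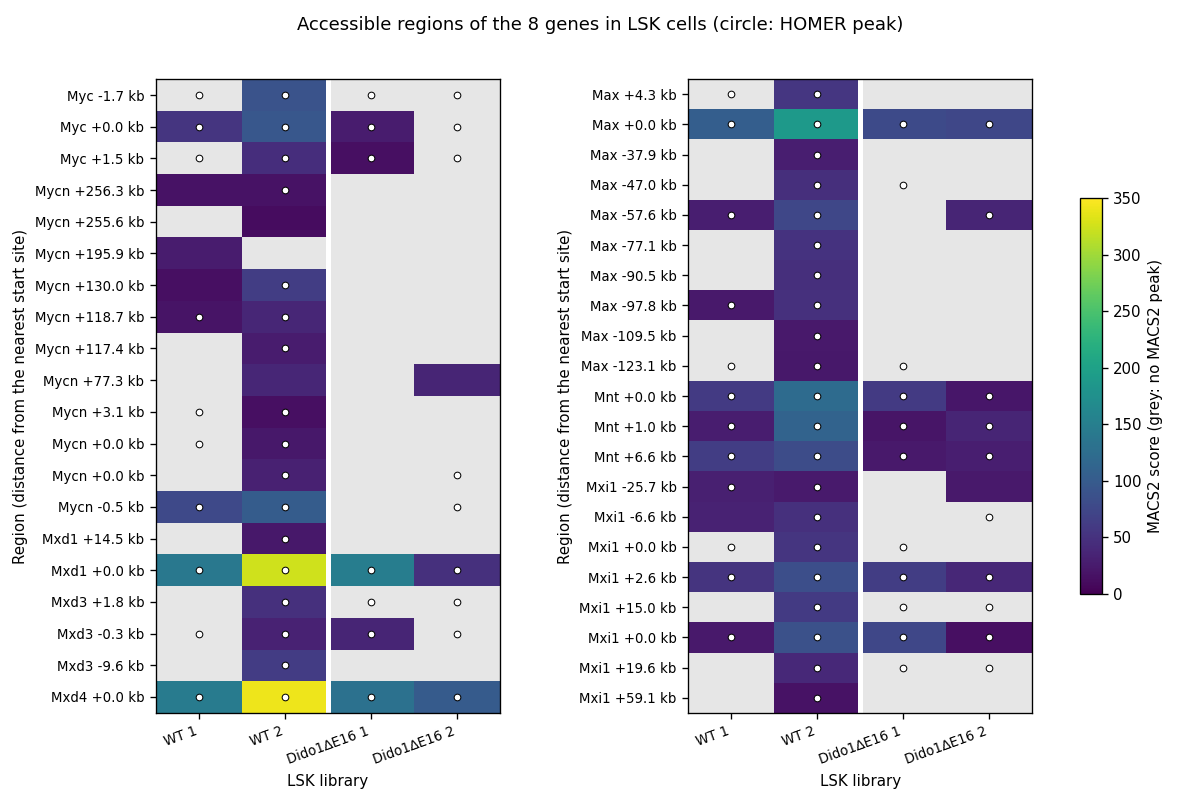
MACS2 score of each accessible region of the 8 genes (rows, labelled with the distance from the nearest start site in kb) in the 4 LSK libraries (columns). Grey cells have no MACS2 peak and circles mark a HOMER peak. Regions of Mxd4 and Mnt are filled in all 4 columns, and those of Mycn almost only in the WT columns.

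The strongest of these Mycn regions lay 0.5 kb upstream of the gene, at chr12:12942338-12942927. Its MACS2 score was 77 in WT replicate 1 and 102 in WT replicate 2, above the median scores of 34 and 48 of all peaks in these libraries. Of 2515 promoter regions shared by the WT libraries that scored 77 or more in WT replicate 1, 6 (0.239%) had no peak in either Dido1∆E16 library, and this was 1 of them. The other genes were Adamts3, Mlf1, Slc16a14, 9030404E10Rik and 9330111N05Rik. The cutoff of 77 was the score of the Mycn region itself, chosen after the scores had been seen. By this choice the Mycn region stood at the lower edge of the class, so 0.239% does not measure how unusual it was. With no cutoff on the score, 14.8% of promoter regions found in both WT libraries lacked a peak in Dido1∆E16 cells. At the Mycn region, HOMER called a peak in both WT libraries and in Dido1∆E16 replicate 2. By that caller the region thus differed in Dido1∆E16 replicate 1 alone.

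The other shared Mycn regions were 118.7, 130 and 256.3 kb downstream of the start site, between genes, and had lower scores of 14 to 18 in WT replicate 1. They were given to Mycn by the authors' annotation because it is the nearest gene. A further 6 Mycn regions had a peak in 1 WT library alone, among them those over the start sites and 1 in an intron. The 1 Dido1∆E16 peak of Mycn, in replicate 2, lay 77.3 kb downstream and was shared with WT replicate 2 only.

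The authors' lists of differential regions give a tag count in every library, also where no peak was called in that library. The regions themselves were selected by the authors' test, and those read here overlap called peaks of the 8 genes. In the 1.14 kb region over the Mycn promoter (chr12:12941564-12942698), the log2 tag counts of WT 1 and 2 were 7.27 and 7.04, and those of Dido1∆E16 1 and 2 were 6.24 and 6.23. The means differed by -0.92 on the log2 scale (Dido1∆E16 minus WT), and the libraries of the genotypes did not overlap. A longer region of 6.01 kb contains the first and covers most of the gene. It held 8.93 and 8.56 in WT and 7.76 and 8.04 in Dido1∆E16 cells, a difference of -0.84. The lists contain only regions that passed the authors' own test, 5231 and 8540 of them, and 99.6% and 99.9% of these were lower in both Dido1∆E16 libraries. The Mycn values were thus selected for a difference, and no test was applied to them here.

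At Myc the tag counts were lower in the same way, whereas the peak calls overlapped between the genotypes. Its 5.06 kb region (chr15:61983250-61988310) held log2 tag counts of 8.96 and 9.11 in WT and 8.41 and 8.03 in Dido1∆E16 LSK cells. The difference of the means was -0.82, in a region selected in the same way. At Myc, MACS2 called 1 peak in WT 1 and 3 in WT 2, against 3 in Dido1∆E16 1 and 0 in Dido1∆E16 2. The peak over the start site scored 54 and 95 in WT and 26 in Dido1∆E16 replicate 1, with no MACS2 peak in Dido1∆E16 replicate 2. HOMER called peaks over all 3 Myc regions in all 4 libraries.

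**Figure D2:**
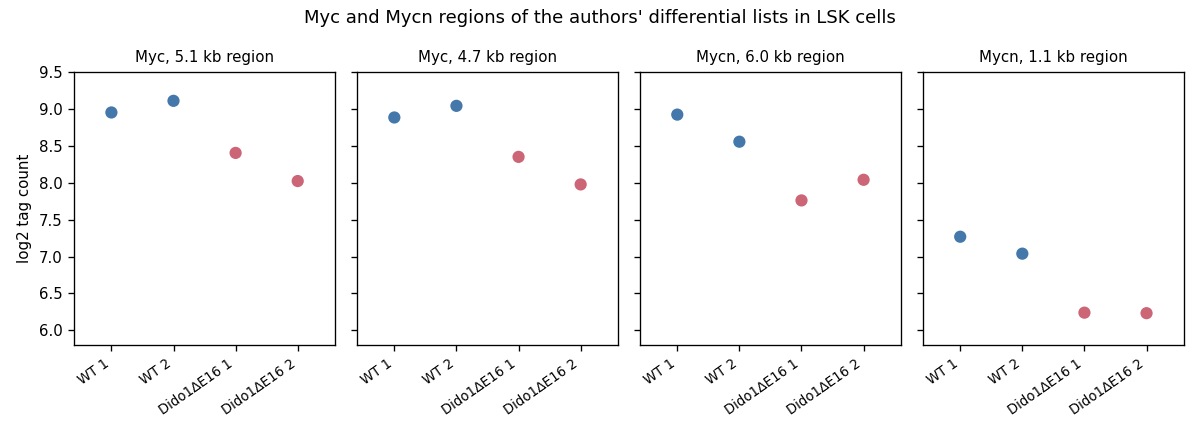
Log2 tag counts (vertical axis, which does not start at 0) in the 4 LSK libraries for the 4 regions of the authors' differential lists that overlap peaks of Myc or Mycn. Each point is a library, blue for WT and red for Dido1∆E16, and in each region both red points lie below both blue points. The shorter region of each gene lies inside its longer region, and all were selected for a difference by the authors' test.

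A cluster of enhancers that drives Myc in blood stem cells and progenitors is known to lie far downstream of the gene. The window from 1.5 to 1.9 Mb downstream of the Myc start (chr15:63485391-63885391) was examined for this reason, after the peaks had been seen. It held 5 and 9 MACS2 peaks in WT and 1 and 2 in Dido1∆E16 cells, and 4, 13, 1 and 4 HOMER peaks by library. With equal numbers of peaks it held 3 and 2 in WT and 1 and 2 in Dido1∆E16 cells, so the genotypes overlapped. Of the 5 regions there that the WT libraries shared, 3 had no Dido1∆E16 peak, beside 60.6% of the shared regions outside promoters over the genome. The region 1.66 Mb downstream was called in all 4 libraries, with scores of 63 and 204 in WT and 32 and 53 in Dido1∆E16 cells.

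Max and Mxi1 also had fewer peaks in each Dido1∆E16 library than in any WT library. Max had 3 and 10 peaks in WT and 1 and 2 in Dido1∆E16 cells, and Mxi1 had 4 and 8 against 2 and 3. With equal numbers of peaks, Mxi1 went the other way, with 1 and 0 against 2 and 2, and Max had 1 and 1 against 1 and 2. With HOMER peaks Mxi1 overlapped, at 4 and 8 against 5 and 4. With Mycn, this made 3 of the 8 genes, beside 35.6% of the 17769 genes with a peak in any library, so the count was near the background. At Max, the regions called in WT cells alone lay away from the start site. The Max promoter was called in all 4 libraries, with scores of 104 and 189 in WT and 79 and 74 in Dido1∆E16 cells. Of its other regions, 1 in an intron and 6 between genes were called in WT replicate 2 alone, the library with the most tags and peaks.

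Mxi1 has several start sites, and the promoter inside the gene, at chr19:53329234-53329920, was called in all 4 libraries. The upstream promoter was called by MACS2 in WT replicate 2 only, and by HOMER in both WT libraries and Dido1∆E16 replicate 1. An intronic region 2.6 kb downstream of the first start had scores of 53 and 84 in WT and 63 and 39 in Dido1∆E16 cells, with overlap between the genotypes.

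The promoters of Mxd4, Mxd1 and Mnt were called in every library. Mxd4 had 1 peak in every library, over its promoter, with scores of 145 and 341 in WT and 131 and 100 in Dido1∆E16 cells. The scores of the Mxd1 promoter were 140 and 325 against 149 and 48. Mnt had 3 regions, at the promoter, in an intron and at an exon, and all were called in all 4 libraries. At Mxd3 the promoter peak was called in WT replicate 2 and Dido1∆E16 replicate 1 by MACS2, and in all 4 libraries by HOMER.

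Taking the 8 genes as 1 set, their MACS2 peaks merged into 41 regions. Of these, 8 were called in all 4 libraries, 27 in WT libraries only and 0 in Dido1∆E16 libraries only. Merged in the same way, the peaks of all genes gave 61244 regions, of which 15.5% were called in all 4 libraries, 67.6% in WT libraries only and 2.96% in Dido1∆E16 libraries only. As many as 21 regions of the 8 genes were called in 1 library alone, beside 52.1% of all regions. By regions shared between the WT libraries, 6 of 18 had no Dido1∆E16 peak (33.3%), which is below the 43.6% over all genes, and 4 of the 6 were those of Mycn. With equal numbers of peaks, 1 of 6 shared WT regions of the 8 genes had no Dido1∆E16 peak, and it was the region upstream of Mycn. This was 16.7%, near the 13.3% over all genes in this setting. Fewer peaks in each Dido1∆E16 library than in any WT library were then found for 0 of the 8 genes, beside 7.16% of all genes.

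In pre-B cells the 8 transcripts covered a wide range of levels, and no difference between the genotypes passed the test. Mxd4 and Max were the most abundant, at 223 and 198 TPM on average over the 4 libraries, and Mycn the least, at 2.27 TPM. TPM (transcript abundance scaled to a fixed total) is a level per transcript length, so that genes can be set side by side. Of the 8 genes, 0 were called by limma (adjusted p under 0.05 with a log2 fold change of 0.6 or more in either direction), and 0 had an unadjusted p under 0.05. Over all 11871 genes tested, 0.0505% were called and 11.7% had an unadjusted p under 0.05.

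**Figure D3:**
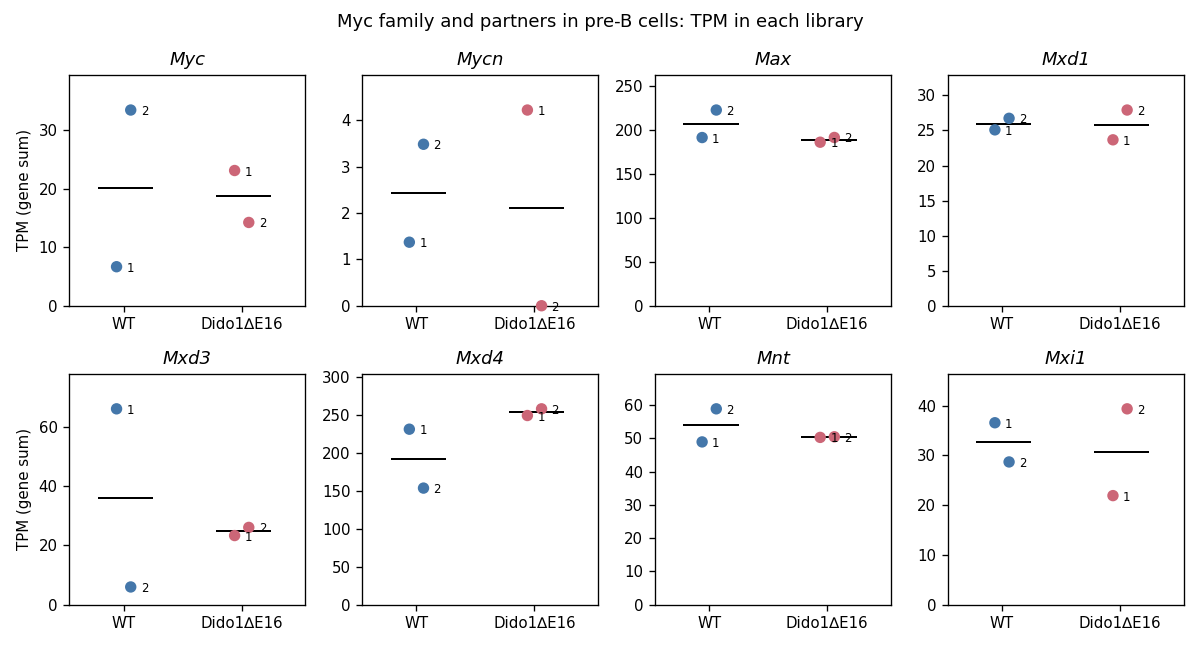
TPM of each of the 8 genes (vertical axis from 0, a scale for each gene) in the 2 WT (blue) and 2 Dido1∆E16 (red) pre-B libraries, with the replicate number beside each point and the mean as a bar. Only Mxd4 has both Dido1∆E16 libraries above both WT libraries, and in Myc and Mxd3 both Dido1∆E16 libraries lie between the WT libraries.

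Myc (chromosome 15, 61985391 to 61990374, plus strand) stood at 6.66 TPM in WT 1, 33.4 TPM in WT 2, 23.1 TPM in Dido1∆E16 1 and 14.2 TPM in Dido1∆E16 2. The WT libraries thus lay at the lowest and the highest level, with the Dido1∆E16 libraries between them. The means were 20.02 ± 18.9 TPM (SD, n = 2) in WT and 18.6 ± 6.27 TPM (SD, n = 2) in Dido1∆E16 cells. On the log2(TPM + 1) scale the difference had the opposite sign, 0.24 ± 0.80 (SE; adjusted p = 0.937, limma with Benjamini-Hochberg adjustment), with a 95% interval from -1.95 to 2.43. StringTie gave nearly all Myc signal to the full-length transcript of 3 exons in WT replicate 2 and both Dido1∆E16 libraries. In WT replicate 1 it gave all of it to a transcript of 2 exons that begins at position 61987422, and listed the full-length transcript at 0.

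Mycn (chromosome 12, 12936093 to 12941914, minus strand) had 1.37 and 3.48 TPM in WT and 4.22 TPM in Dido1∆E16 replicate 1, and was listed at 0 in Dido1∆E16 replicate 2. The levels were low and the genotypes overlapped. The log2 fold change was -0.51 ± 0.97 (SE; adjusted p = 0.882, limma), and without Dido1∆E16 replicate 2 it was 0.68. The Mycn transcript of 3 exons held all of the signal in WT libraries, although its first exon had no coverage in WT replicate 2, and a transcript of 2 exons held all of it in Dido1∆E16 replicate 1. The 3-exon transcript was the only transcript of the 8 genes with an unadjusted p under 0.05, at 0.0499 (adjusted p = 0.542, limma), and 0 of their 13 tested transcripts were called, beside 0.153% of all transcripts. The mean level of this transcript was 1.21 TPM.

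Max (chromosome 12, 76937269 to 76962201, minus strand) was among the steadiest, with 191 and 223 TPM in WT and 186 and 191 TPM in Dido1∆E16 cells. Its log2 fold change was -0.13 ± 0.13 (SE; adjusted p = 0.749, limma), and the 95% interval ran from -0.49 to 0.23. A 27-base exon of Max, whose inclusion gives the longer form of the protein, had a scaled coverage of 1.54 to 6.49, whereas the other 4 exons of the transcript ranged from 141 to 244. StringTie nonetheless listed the transcript that lacks only this exon at 0 in all 4 libraries. These values therefore do not settle the ratio of the forms. The 30-base exons of Mxd1 and Mxd4 lay within the range of the other exons of their transcripts in every library. The 30-base exon of Mxi1 was low, at 2.98 to 8.65, as the short exon of Max was.

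Max exceeded the sum of Myc and Mycn in every library. The ratio of Max to that sum was 23.8 and 6.04 in WT and 6.81 and 13.5 in Dido1∆E16 cells, on the TPM scale. The summed level of Mxd1, Mxd3, Mxd4, Mnt and Mxi1 was 50.8 and 7.41 times that of Myc and Mycn in WT and 13.5 and 28.3 times in Dido1∆E16 cells. Both ratios were highest in WT 1 and lowest in WT 2, where Myc, part of the denominator, was lowest and highest.

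Mxd4 (chromosome 5, 34173883 to 34187720, minus strand), a repressor expressed in resting and differentiating cells, was the only one of the 8 genes whose genotypes did not overlap. It had 231 and 153 TPM in WT and 249 and 258 TPM in Dido1∆E16 cells. Over all genes tested, 27.2% were higher in both Dido1∆E16 libraries and 15.5% lower in both, so 1 of 8 was not more than the background. The log2 fold change was 0.43 ± 0.23 (SE; adjusted p = 0.588, limma), with a 95% interval from -0.20 to 1.05. A transcript at the 3′ end of the gene, which only the GENCODE annotation places in Mxd4, had 311 and 213 TPM in WT and 282 and 259 TPM in Dido1∆E16 libraries. With it, the gene sum overlapped between the genotypes and the log2 fold change was 0.23.

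Mxd3 (chromosome 13, 55325168 to 55329823, minus strand), the MXD gene known to be expressed in the S phase of cycling cells, had the widest range in fold of the 7 genes above 0 in every library. It had 66.2 and 5.95 TPM in WT and 23.4 and 26.1 TPM in Dido1∆E16 cells, an 11.1-fold range, and again both Dido1∆E16 libraries lay between the WT libraries. All 6 exons were most covered in WT replicate 1, at 49.9 to 95.8, against 0 to 9.73 in WT replicate 2. The last 105 bases of Mxd3 overlap the end of Prelid1 on the other strand, which stood at 339 and 279 TPM in WT and 275 and 276 TPM in Dido1∆E16 cells. The log2 fold change of Mxd3 was 0.25 ± 1.14 (SE; adjusted p = 0.953, limma), and without WT replicate 2 it was -1.39.

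Mxd1 and Mnt varied little between the libraries. Mxd1 (chromosome 6, 86647042 to 86669161, minus strand), which rises in differentiating myeloid cells, had 25.1 and 26.7 TPM in WT and 23.7 and 27.9 TPM in Dido1∆E16 cells. Mnt (chromosome 11, 74830920 to 74845725, plus strand), the broadly expressed MAX partner, had 48.96 and 58.9 TPM in WT and 50.3 and 50.5 TPM in Dido1∆E16 cells. Their 95% intervals of the log2 fold change ran from -0.49 to 0.47 for Mxd1 and from -0.52 to 0.34 for Mnt.

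Mxi1 (chromosome 19, 53310518 to 53375810, plus strand), which encodes a further repressor of the MXD group, had 36.6 and 28.7 TPM in WT and 21.9 and 39.4 TPM in Dido1∆E16 cells. The Dido1∆E16 libraries held the lowest and the highest value. A transcript that starts at the inner promoter, placed in Mxi1 only by GENCODE, had 14.1 and 13.1 TPM in WT and 15.9 TPM in Dido1∆E16 replicate 1 and was listed at 0 in replicate 2. With it the sums were 50.6 and 41.8 TPM in WT and 37.8 and 39.4 TPM in Dido1∆E16 cells, and both Dido1∆E16 libraries then lay below both WT libraries. The log2 fold change was -0.25 with this transcript and -0.13 without it, and neither passed the test.

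In the order of mean levels, Mxd4 and Max were not separated beyond their spread, since Max was higher in WT replicate 2. Max was above Mnt, Mnt above Mxi1, and Myc above Mycn in all 4 libraries without overlap of their ranges. Mxi1, Mxd3, Mxd1 and Myc, at 31.6, 30.4, 25.9 and 19.3 TPM, overlapped.

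The libraries differed in markers of other states, and these values stand beside the levels of Myc and Mxd3. All 16 genes of the list of cycling cells were highest in WT replicate 1 and lowest in WT replicate 2. Their summed level was 3233 and 748 TPM in WT and 1647 and 1854 TPM in Dido1∆E16 libraries, and the most abundant, Top2a, had 503, 45.7, 189 and 255 TPM in the same order. Mxd3 had the order of this list, and Myc the opposite order in the WT libraries. The part of cycling cells in these levels was not tested. In bulk samples, fewer cells of a type and less RNA per cell cannot be told apart.

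**Figure D4:**
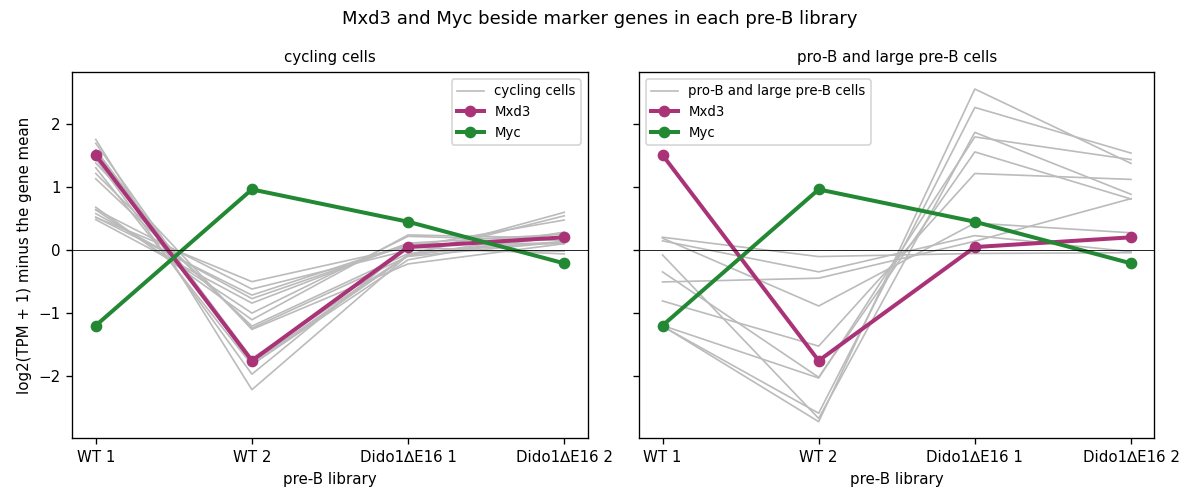
Log2(TPM + 1) minus the mean of each gene (vertical axis) in the 4 pre-B libraries (horizontal axis), with lines joining the values of a gene. Mxd3 (magenta) runs with the 16 genes of cycling cells (grey, left), which are highest in WT 1 and lowest in WT 2, and Myc (green) is lowest in WT 1; the 10 genes of pro-B and large pre-B cells (grey, right) are mostly highest in Dido1∆E16.

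Genes of pro-B and large pre-B cells, the stage at which MYC is most active in this lineage, were read as a list of 10. Of these, 8 were higher in both Dido1∆E16 libraries without overlap, beside 27.2% of all genes, and 0 were called. In limma, 6 had an unadjusted p under 0.05, all higher, beside 11.7% of all genes in either direction. The surrogate light chain gene Vpreb1 had 108 and 40.9 TPM in WT and 1222 and 738 TPM in Dido1∆E16 cells. Vpreb1 had a log2 fold change of 3.81 ± 0.55 (SE; adjusted p = 0.191, limma). The summed level of the list was 1163 and 727 TPM in WT and 3171 and 2101 TPM in Dido1∆E16 libraries. Il7r, the receptor of interleukin 7, overlapped at 442 and 313 against 468 and 392 TPM. The list of small pre-B cells had a median of 0.04 for the log2 fold change (-0.05 with median-centred libraries), and its most abundant gene, Cd79b, had 3393 and 4458 TPM in WT and 4324 and 4379 TPM in Dido1∆E16 cells. The part of a shift in stage in the levels of the 8 genes was not tested.

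Other cell types also differed between libraries. All 11 genes of neutrophils and monocytes were highest in Dido1∆E16 replicate 2, with a summed level of 252 and 2242 TPM in WT and 1094 and 9944 TPM in Dido1∆E16 libraries. S100a9, the most abundant, had 72.8, 699, 353 and 2612 TPM. The 7 tested erythroid genes were highest in the same library, with sums of 340, 953, 760 and 8793 TPM in the same order, led by Hba-a2. Of the 8 genes, Mxd1, Mxd4 and Mxi1 were highest in this library, and 3 others were highest in WT replicate 2. With the transcripts that only GENCODE places in them, Mxd4 and Mxi1 were highest in WT replicate 1. The share of all genes highest in each library was not computed, and the part of these cells was not tested. Mature B cell and plasma cell genes had median log2 fold changes of -0.18 and -0.42. T and NK cell genes summed to 4.83 to 26.0 TPM, with 6 of 10 listed at 0 in all libraries, and LSK genes to 10.6 to 27.7 TPM, with 5 of 10 at 0.

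Around the 8 genes, the cofactors and regulators of the network were read as lists. Over all genes tested the median log2 fold change was 0.07. The lists had medians of 0.14 for 10 MYC coactivators, 0.09 for 9 corepressors of MXD and MNT and 0.10 for 9 tested genes of MYC protein turnover, which were 0.0514, 0.00383 and 0.0126 with median-centred libraries. In these lists, 0 genes were called or had an unadjusted p under 0.05 (limma), beside 0.0505% and 11.7% of all genes. Without overlap, the coactivators Kat5 and Kat2a, the corepressors Sap30 and Sap18 and the turnover gene Ppp2r5a were lower and the turnover gene Fbxw7 was higher in both Dido1∆E16 libraries, beside 15.5% of all genes lower and 27.2% higher in both, and these genes were named for this order. Ruvbl2, Actl6a and Ep400, subunits of chromatin remodelling and acetylation complexes, had log2 fold changes of 0.28, 0.22 and 0.36. Among the corepressors, Rbbp4, Hdac2, Ncor1 and Rbbp7 had -0.07, 0.27, 0.17 and 0.09. Of the genes of protein turnover, Ppp2r5a, a regulatory subunit of a phosphatase that acts on MYC, had 292 and 281 TPM in WT and 255 and 229 TPM in Dido1∆E16 cells. Usp7, Huwe1 and Gsk3b had log2 fold changes of 0.08, 0.28 and 0.10.

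Among the other factors of the network, 5 of 7 were tested and had a median of -0.08 (-0.165 with median-centred libraries). Of these 5, 1 was higher (Mga) and 2 lower (Mlx and Usf2) in both Dido1∆E16 libraries, beside 27.2% and 15.5% of all genes. An unadjusted p under 0.05 (limma) was reached by Mlx alone, beside 11.7% of all genes in either direction. Mlx, the partner of the MONDO factors, had 81.7 and 80.3 TPM in WT and 56.6 and 51.5 TPM in Dido1∆E16 cells, without overlap. Its log2 fold change was -0.58 ± 0.13 (SE; adjusted p = 0.289, limma, unadjusted p = 0.0107), and it was not called. Mga, a MAX partner of a Polycomb complex, had 25.7 and 24.2 TPM in WT and 33 and 34.1 TPM in Dido1∆E16 cells (adjusted p = 0.431, limma). Usf1, Usf2 and Mlxip had log2 fold changes of -0.15, -0.08 and -0.08.

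Known targets of MYC were read as a further list of 30 induced genes. Of these, 13 were higher in both Dido1∆E16 libraries and 3 lower in both, beside 27.2% and 15.5% of all genes, and 0 were called. An unadjusted p under 0.05 was reached by 7 of the 30, all higher in Dido1∆E16 cells, beside 11.7% of all genes in either direction, and the list median was 0.16 (0.0775 with median-centred libraries). The 3 lower genes were Eif4a1 and Eif4e, for translation initiation factors, and Tfrc, for the transferrin receptor, and these were picked for naming because of their values. The most abundant, Cdk4, had 353 and 234 TPM in WT and 322 and 314 TPM in Dido1∆E16 cells, with overlap. Ncl and Ldha, for a nucleolar protein and lactate dehydrogenase, were higher in both Dido1∆E16 libraries, with log2 fold changes of 0.17 and 0.41, and Npm1 had -0.01. Srm and Cad, for enzymes of polyamine and pyrimidine synthesis, were among the 7, with log2 fold changes of 0.72 and 0.69 (adjusted p = 0.341 and 0.331, limma). Ccnd2, a D-type cyclin of B-cell precursors, was another, and these 3 were chosen after their values were seen. It had 8.56 and 6.85 TPM in WT and 36.1 and 27.1 TPM in Dido1∆E16 cells. The log2 fold change was 1.90 ± 0.25 (SE; adjusted p = 0.191, limma).

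**Figure D5:**
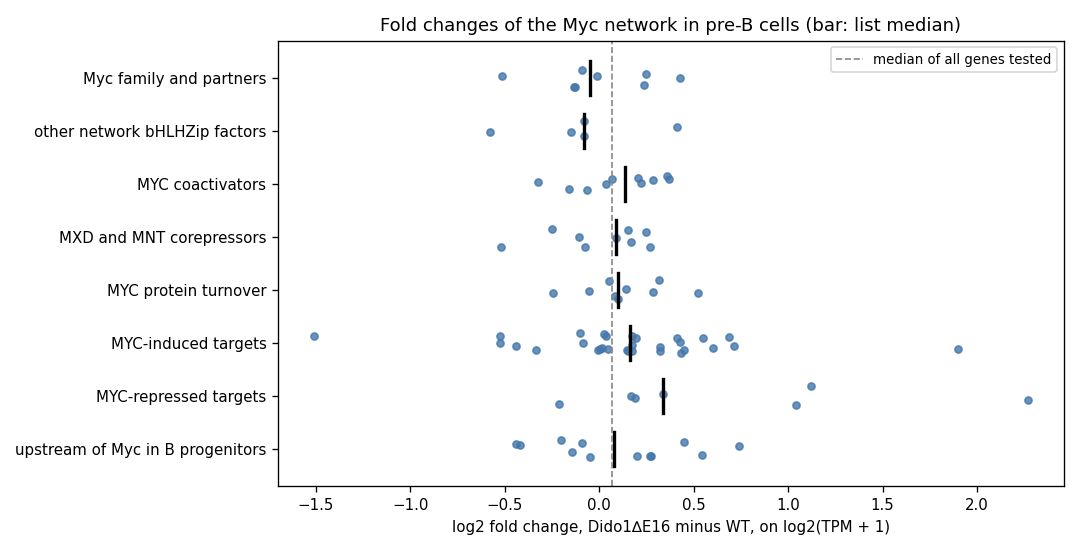
Log2 fold change of each tested gene (points, Dido1∆E16 minus WT on the log2(TPM + 1) scale) in 8 lists of the MYC network in pre-B cells, with the list median as a bar and the median of all genes tested, 0.07, as a dashed line. The medians lie between -0.08 and 0.34, and single genes spread most among the targets.

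Of 7 tested targets known to be repressed by MYC, 4 were higher and 0 lower in both Dido1∆E16 libraries, beside 27.2% and 15.5% of all genes, and the median was 0.34 (0.25 with median-centred libraries), in the same direction as that of the induced targets. Cdkn1b, an inhibitor of cyclin-dependent kinases and the most abundant, had 138 and 204 TPM in WT and 184 and 192 TPM in Dido1∆E16 cells. Gadd45a, Ndrg1 and Hes1 had log2 fold changes of -0.21, 0.34 and 0.19. The 4 higher genes were Ndrg1, Cebpa and the cyclin-dependent kinase inhibitor genes Cdkn1a and Cdkn1c. Cebpa was low and barely separated, with 0.223 and 0.769 TPM in WT and 0.773 and 4.18 TPM in Dido1∆E16 replicates 1 and 2. Cdkn1c, at 2.11 TPM and 0 in WT and 6.22 and 8.99 TPM in Dido1∆E16 cells, alone had an unadjusted p under 0.05 (adjusted p = 0.354, limma), and 0 were called. Over all genes tested, 11.7% had an unadjusted p under 0.05 in either direction.

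Of 12 regulators upstream of Myc in B-cell progenitors, 10 did not overlap between the genotypes. In both Dido1∆E16 libraries 5 were higher and 5 lower, beside 27.2% and 15.5% of all genes, and the median was 0.08 (-0.00816 with median-centred libraries). Tcf3, which encodes the E2A proteins, had 1141 and 912 TPM in WT and 1254 and 1208 TPM in Dido1∆E16 cells. Pax5, Ikzf1 and Irf4 had log2 fold changes of -0.05, -0.14 and -0.44. Ebf1 and Foxo1 were also lower in both, and Bcl6 and Stat5b higher in both. An unadjusted p under 0.05 was reached by 2 of the 12, Ikzf3 and Stat5a, beside 11.7% of all genes in either direction. Their log2 fold changes were 0.55 and 0.74 (adjusted p = 0.322 and 0.225, limma), and 0 of the 12 were called. Stat5a, which acts below the interleukin 7 receptor, had 32.2 and 31.8 TPM in WT and 52.7 and 55.3 TPM in Dido1∆E16 cells.

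The genes whose pattern over the 4 pre-B libraries was closest to that of Myc were Rgs16, Sox8 and Gm18853, at Euclidean distances of 0.27, 0.32 and 0.34 of centred log2(TPM + 1), out of 11870 genes. Rgs16, which encodes a regulator of G protein signalling, had 15 and 89.6 TPM in WT and 51.9 and 31.3 TPM in Dido1∆E16 cells. For Mycn they were Snora78, Gm15927 and Dok7, at distances of 0.13, 0.14 and 0.17. These distances rest on 4 libraries, and no test was applied.

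For scale, the calls over all genes were 3 higher and 3 lower genes. Serpina3g, which encodes a serine protease inhibitor of leukocytes, had 29.0 and 29.5 TPM in WT and 227 and 197 TPM in Dido1∆E16 cells (adjusted p = 0.0482, limma). Lamtor1, a lysosomal scaffold of nutrient signalling, had 90.0 and 102 TPM in WT and 4.90 and 4.33 TPM in Dido1∆E16 cells. Smim11 and Mrpl42 were listed at 0 in both Dido1∆E16 libraries, and Ndufa5 and Tex45 in both WT libraries, with 60.8 to 87.3 TPM in the other genotype.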

How the data were processed

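Sorted LSK cells were analysed by Omni-ATAC-seq and sorted pre-B cells by RNA-seq, with 2 WT and 2 Dido1∆E16 libraries each. For LSK cells the methods give 3 libraries per genotype and the labels 2, and the labelled ones were used. The 8 genes and the lists of other genes were chosen with earlier results of these data known, and the lists come from general knowledge of the network.

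The authors aligned reads to mm10 with Bowtie2 and BWA 0.7.15, removed duplicates, and called peaks in each library with MACS2 and HOMER. ChIPseeker gave each peak its nearest gene. The deposited peak files hold a score, and all peaks of HOMER share a constant one. The authors' deposited lists of differential regions hold log2 tag counts per library, normalized to total tags, and fold changes and p-values that were not used. In the deposited StringTie files each UCSC known transcript has a TPM, an FPKM and a coverage, but no read count, so the precision from depth could not be computed. The authors' tables of expression tests were used only for the pairs of transcript and symbol.

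Of 63753 transcripts listed in all 4 libraries, 30124 had a symbol in the authors' files. Transcripts without one took the GENCODE M21 gene on the same strand that holds at least 50% of their exonic bases, which gave 56380 with a symbol. Where the authors gave a symbol, GENCODE gave the same one for 97.8%. For the 8 genes only the authors' symbols were used. TPM were summed per gene. Genes with a mean of at least 1 TPM were fitted as log2(TPM + 1) in R 4.3.3 by limma 3.58.1, with genotype as the term, using eBayes with a mean-variance trend, and p-values were adjusted over all genes (Benjamini-Hochberg). Genes were called at an adjusted p under 0.05 if the log2 fold change was 0.6 or more in either direction. The p-values measure the spread between 2 pools per genotype. The fits and the overlap rules were tested on simulated data.

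MACS2 peaks of the autosomes and sex chromosomes were compared. Regions overlapped from 1 bp. Shared WT regions are WT replicate 1 peaks that overlap a WT replicate 2 peak. Alternatives were another pseudocount (0.1), no filter, median-centring, FPKM, no immunoglobulin transcripts, no trend, a replicate block, the most abundant transcript of each gene, HOMER peaks, equal numbers of peaks, the better-scoring 50%, peaks within 10 kb of a start site, an overlap of at least 50%, and leaving out each library. The symbols of the authors alone for all genes, and GENCODE symbols for the 8 genes too, were added after the data were seen. Genes named from the lists are the 4 with the highest mean TPM, any called gene and, where stated, others; for Myc and Mycn the 3 nearest patterns are named, and the 3 called genes with the largest change in each direction. Results for 2 genes of these lists are not reported here. Tables were handled in Python 3.11.15 (scipy 1.17.1, numpy 2.4.6, pandas 2.3.3), regions with bedtools 2.31.1 and figures with matplotlib 3.10.9.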

Additional observations from a re-analysis of the deposited data

How the results depend on the processing

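None of the 8 genes was called by limma under any alternative that was run for gene sums or transcripts. Their log2 fold changes kept their direction in 102 of 111 refits, with adjusted p-values from 0.184 to 1.0. The 9 others had the opposite direction, each with a library left out. With the most abundant transcript Myc had 1.69, and with a pseudocount of 0.1 Mycn had -1.8. Leaving out each library in turn, the log2 fold change ranged from -0.846 (without WT replicate 1) to 1.32 for Myc, which had -0.0936 without Dido1∆E16 replicate 1, and from -1.71 to 0.68 (without Dido1∆E16 replicate 2) for Mycn. It ranged from -1.39 (without WT replicate 2) to 1.89 for Mxd3 and from -0.221 to 0.0413 (without WT replicate 2) for Mnt. For Mxd1 it ranged from -0.125 to 0.104 (without Dido1∆E16 replicate 1), with 0.034 without WT replicate 2. For Mxi1 it ranged from -0.544 to 0.274 (without Dido1∆E16 replicate 1), with 0.035 without WT replicate 1. Mxd4 kept its direction, from 0.133 (without WT replicate 2) to 0.721 (without WT replicate 1), and so did Max, from -0.237 (without WT replicate 1) to -0.0195 (without WT replicate 2). The count of 6 called genes over the whole table became 87 without a trend (74 higher and 13 lower), 11 with the most abundant transcript and 9 with the authors' symbols alone. It became 0 with a pseudocount of 0.1, with no filter and when any library was left out (0 to 0).

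The replicate numbers do not pair the pre-B libraries. The differences between replicates 1 and 2 had a Pearson's r of 0.0474 between the genotypes over 11871 genes, and with the replicate block 0 genes were called. In the LSK peaks, 3 genes with fewer peaks in both Dido1∆E16 libraries became 1 with HOMER peaks (Max, beside 19.5% of all genes), 1 with the better-scoring 50% of each library (Myc, beside 28.1%) and 0 with equal numbers of peaks (beside 7.16%). The count ranged from 3 to 5 when a library was left out, beside 37.1% of all genes without WT replicate 2 and 74.1% without WT replicate 1. The 6 shared WT regions without a Dido1∆E16 peak became 1 with equal numbers, 2 with the better-scoring 50% (2 of 8 regions, beside 40.2% over all genes), and from 7 to 26 when a library was left out. The highest count, without WT replicate 1, was 26 of 40 regions, beside 69.9% over all genes. The causes of these changes were not tested.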
